A study of Mus musculus with 3 samples.

Results

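The complement genes beyond C1q considered here are C3, C4b, Cfb, Cfp, C6, Vsig4, C3ar1 and C5ar1. Members were chosen by symbol: every probe set of the deposited table that the platform annotation pairs with 1 of these 8 symbols alone. The rule found 10 probe sets for 6 genes, out of 18193 genes with a probe set in the series. Cfp had 2 probe sets, C3ar1 had 3, C5ar1 had 2, and Cfb, C6 and Vsig4 had 1 each. C3 and C4b had no probe set under this rule and are not analysed here as members. RNA came from 3 sorted cell populations of the adult mouse spleen, each on 1 Affymetrix array. Red pulp macrophages were sorted on high surface levels of the macrophage antigen encoded by Adgre1 and high green fluorescent protein (GFP) from the Spic reporter, and Spic-positive and Spic-negative monocytes were sorted on CD11b and Ly6C and divided by GFP. Before the monocyte sort, beads had removed cells bearing CD4, CD8 or B220, and whether the macrophage fraction passed the same beads is stated differently in the design text and the sample protocol. All 3 populations carried the genotype Spic(igfp/+), in which 1 Spic allele bears the reporter, so none was wild type at Spic. How many mice stood behind each array is not given. With 1 array per population there was no spread between animals and no significance test, and every difference below is a description of single arrays.

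Complement is a cascade of plasma proteins that marks particles for uptake and can perforate membranes. In the alternative pathway, factor B (Cfb) binds C3b and supplies the protease of the C3 convertase, and properdin (Cfp) stabilises that enzyme. Downstream, C6 joins C5b to start the membrane attack complex. Vsig4 (also called CRIg) is a receptor of tissue macrophages for C3b and iC3b that takes up coated particles, while C3ar1 and C5ar1 are the receptors for the anaphylatoxins C3a and C5a. Red pulp macrophages clear aged red blood cells, and the series sets them beside monocytes that do or do not express Spic, an Ets family transcription factor related to PU.1.

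The 6 genes did not share 1 pattern. On the brightest probe set of each gene, C6, Vsig4, Cfp and C3ar1 were highest in red pulp macrophages. The second Cfp probe set was lowest there. C6 and Vsig4 lay below the array floor on both monocyte arrays. Cfb was highest in Spic-positive monocytes. C5ar1 was highest in Spic-negative monocytes and below the floor in red pulp macrophages. The floor was log2 5.02 (the median over every non-control probe set), and levels under it lie near background. Values are log2 expression from the authors' robust multi-array average (RMA), so a difference of 1 is 2-fold. Fewer cells of a type and less RNA per cell cannot be told apart in such bulk samples.

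Promoter sequences are shown for the 3 members with the largest macrophage excess and for C5ar1, which lay in the opposite direction, since shared or differing letters near the start can be read against these patterns. The windows are from RefSeq on GRCm38.p6 and run from 250 bases before to 50 after each gene's start. Of the 8 listed genes, 6 matched an entry of the promoter table used. The printed windows lie at chr15:4726960-4727259 (plus strand) for C6, chrX:96293389-96293688 (minus strand) for Vsig4, chrX:20931506-20931805 (minus strand) for Cfp and chr7:16259289-16259588 (minus strand) for C5ar1. Capitals mark GAGGAA, the PU box core bound by PU.1 and its relatives, on either strand (TTCCTC on the other).
C6: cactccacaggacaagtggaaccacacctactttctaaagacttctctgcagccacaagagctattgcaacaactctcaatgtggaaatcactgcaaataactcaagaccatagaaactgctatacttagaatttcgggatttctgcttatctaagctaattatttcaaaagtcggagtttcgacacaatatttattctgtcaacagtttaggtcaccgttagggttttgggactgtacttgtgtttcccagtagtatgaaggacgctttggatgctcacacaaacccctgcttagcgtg
Vsig4: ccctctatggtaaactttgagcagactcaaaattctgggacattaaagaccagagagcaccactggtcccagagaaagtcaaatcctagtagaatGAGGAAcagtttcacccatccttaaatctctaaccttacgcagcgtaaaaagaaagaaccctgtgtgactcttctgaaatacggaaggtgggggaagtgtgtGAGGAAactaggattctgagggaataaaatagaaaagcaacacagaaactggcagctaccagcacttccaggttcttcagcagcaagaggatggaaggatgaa
Cfp: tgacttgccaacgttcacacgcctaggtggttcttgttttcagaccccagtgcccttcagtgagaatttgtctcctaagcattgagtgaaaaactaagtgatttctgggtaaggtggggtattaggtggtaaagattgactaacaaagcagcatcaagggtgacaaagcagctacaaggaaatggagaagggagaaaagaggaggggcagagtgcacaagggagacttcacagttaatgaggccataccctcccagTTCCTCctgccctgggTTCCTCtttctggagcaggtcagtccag
C5ar1: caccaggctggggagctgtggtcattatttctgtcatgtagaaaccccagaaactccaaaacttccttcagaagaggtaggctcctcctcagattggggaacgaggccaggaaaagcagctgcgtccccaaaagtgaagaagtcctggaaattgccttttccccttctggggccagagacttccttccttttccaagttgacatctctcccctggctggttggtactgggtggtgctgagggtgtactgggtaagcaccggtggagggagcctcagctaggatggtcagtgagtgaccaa
Vsig4 held 2 matches, which begin 155 and 53 bases before the start, and Cfp held 2, which begin at bases 7 and 23 of the transcript. C6 and C5ar1 held 0, as did C3ar1, whose window is not printed. Of all 32851 RefSeq windows of this length, 28.3% held at least 1 match. The interferon response core (GAAA, any 2 bases, GAAA), present in 3.44% of windows, was in none of these 5 windows. The antioxidant response core TGACNNNGC, present in 12.4%, was in the Cfp window once and in none of the other 4. All searches covered both strands, and no matches of different motifs overlapped. A match is a description of letters and not a binding site, and no window was matched for Cfb in the table used.

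The labels were checked first. Spic measured log2 12.23 in red pulp macrophages, 9.22 in Spic-positive and 5.66 in Spic-negative monocytes, and Adgre1 measured 12.50 in macrophages, 10.67 in Spic-positive and 10.77 in Spic-negative monocytes. Itgam (CD11b), which is itself a chain of complement receptor 3, measured 5.23 in red pulp macrophages, 7.38 in Spic-positive and 8.68 in Spic-negative monocytes. All 12 red pulp macrophage markers were at least 2-fold higher in macrophages than on either monocyte array. Of all genes above the floor, 22.0% were so against Spic-positive and 19.6% against Spic-negative monocytes. The 12 include Spic and Adgre1, whose reporter and antigen served in the macrophage sort, and the list was chosen with earlier results of these data known. The array medians lay between 4.96 and 5.08. Of 18 spiked hybridization controls, 18 had higher values with Spic-positive than with Spic-negative monocytes (median difference log2 2.16), while the median difference between the macrophage array and the Spic-negative array was 0.07. The Gapdh control set, which compares the 3′ with the 5′ end of the transcript, differed by 1.61 in macrophages, 2.25 in Spic-positive and 0.48 in Spic-negative monocytes. The same difference for beta-actin was 1.13 in macrophages, 0.57 in Spic-positive and 0.74 in Spic-negative monocytes, so the 2 transcripts did not rank the arrays alike. The part of these differences in the comparisons that use the Spic-positive array was not tested.

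Among the components, C6 showed the widest range. Its only probe set, 1449308_at, measured log2 11.22 in red pulp macrophages, 4.80 in Spic-positive monocytes and 4.58 in Spic-negative monocytes. The macrophage array stood alone, and both monocyte arrays lay under the floor. The difference was 6.42 against Spic-positive monocytes (85.8-fold), the 10th largest of the 12375 genes above the floor. Against Spic-negative monocytes it was 6.64 (99.5-fold) and ranked 28th. Because both monocyte levels were near background, the folds rest on that background, and with values below the floor set to the floor the difference was 6.20 in both comparisons. The monocyte arrays differed by 0.21.

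Properdin RNA was abundant on the macrophage array. The brighter Cfp probe set, 1452279_at, measured log2 12.64 in red pulp macrophages, 8.91 in Spic-positive and 9.15 in Spic-negative monocytes. All 3 values were well above the floor, so this difference does not rest on background levels. It was 3.73 against Spic-positive monocytes (13.3-fold, rank 170) and 3.50 against Spic-negative monocytes (11.3-fold, rank 292), and -0.24 between Spic-positive and Spic-negative monocytes. The second probe set, 1447537_at, did not show this pattern. It measured 6.52 in red pulp macrophages, 7.09 in Spic-positive and 7.10 in Spic-negative monocytes, a difference of -0.57 and -0.58 for macrophages against the monocyte arrays. Taking the mean of both probe sets left macrophages higher by 1.58 and 1.46. Both the size and the direction of the Cfp difference therefore depend on which probe set is read.

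Cfb was the 1 member with its highest level in Spic-positive monocytes. Its probe set, 1417314_at, measured log2 7.38 in red pulp macrophages, 9.83 in Spic-positive and 7.09 in Spic-negative monocytes, all above the floor. The Spic-positive array stood apart, while the macrophage value exceeded that of Spic-negative monocytes by 0.30. Macrophages were lower than Spic-positive monocytes by 2.45 on the log2 scale (5.47-fold). Spic-positive monocytes exceeded Spic-negative monocytes by 2.75 (6.71-fold), which ranked 34th of 12375 genes. Cfb and C2, the homologous protease of the classical and lectin pathways, are neighbouring genes in GRCm38.p6, and their levels ran differently. C2 measured 8.82 in red pulp macrophages, 5.53 in Spic-positive and 5.46 in Spic-negative monocytes on its brightest probe set. Its other 2 probe sets gave macrophage levels of 9.09 and 9.38, against 5.27 and 5.34 in Spic-positive and 4.16 and 4.14 in Spic-negative monocytes.

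C3, the central component, had no probe set paired with its symbol in the annotation used. C4b, a component of the classical and lectin pathways, was covered by 1 probe set annotated to both C4a and C4b, which the rule leaves out. That shared probe set measured log2 9.63 in red pulp macrophages, 6.38 in Spic-positive and 6.14 in Spic-negative monocytes. The value is higher on the macrophage array by 3.25 and 3.49, but it cannot be assigned to either gene, whose sequences are near-identical.

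**Figure D1:**
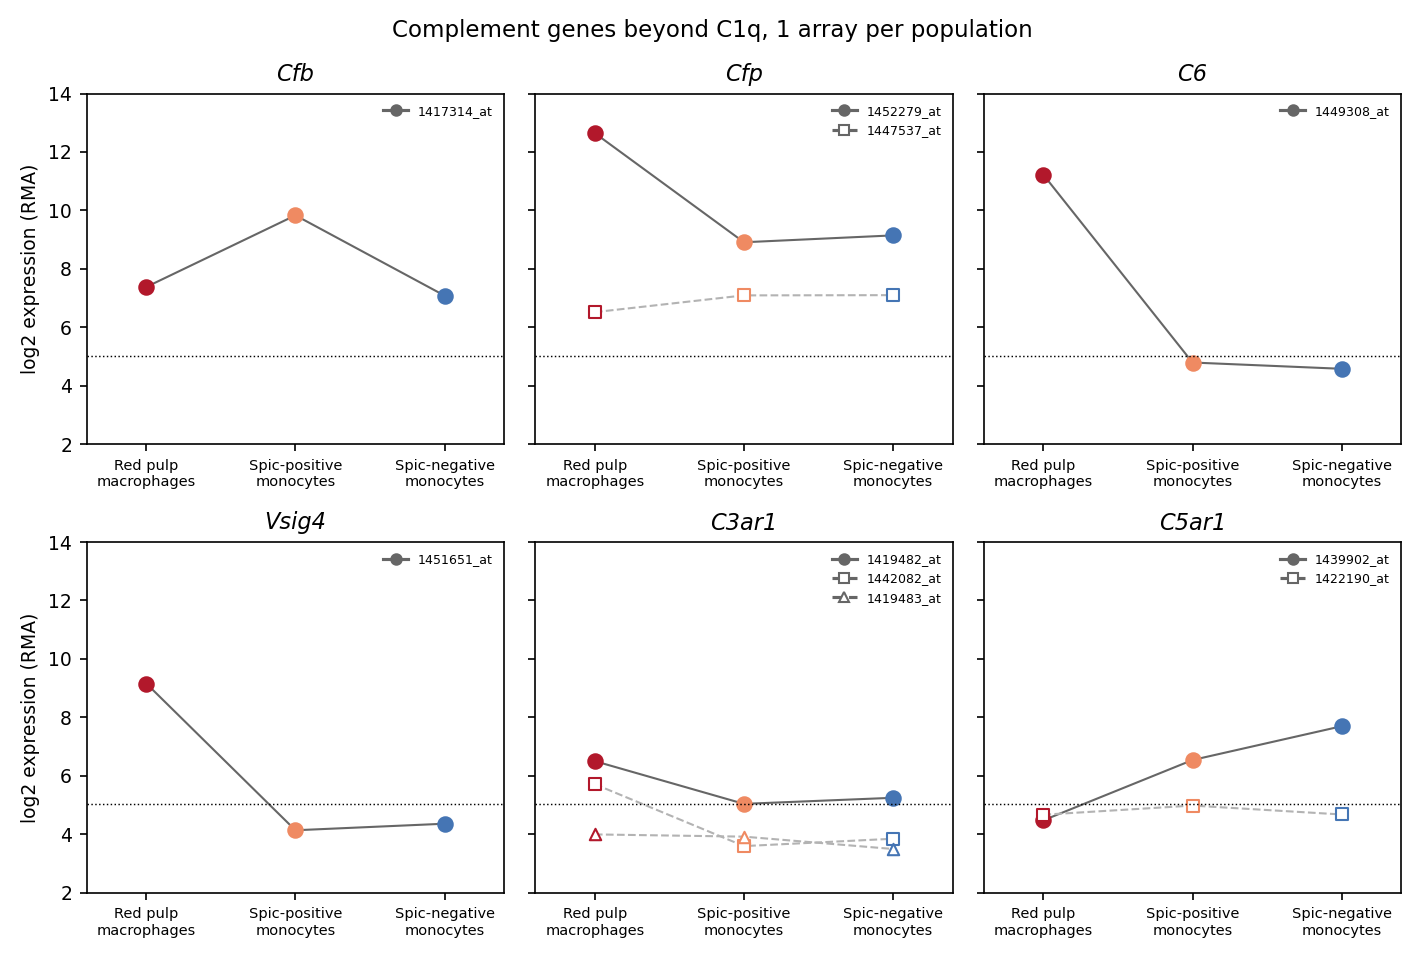
Log2 expression (vertical axis, RMA) of every probe set of the 6 complement genes in red pulp macrophages, Spic-positive monocytes and Spic-negative monocytes, 1 array each. Filled points joined by solid lines are the brightest probe set of a gene, open points its other probe sets, and the dotted line is the floor at 5.02; lines join values of 1 probe set and show no time course. C6 (11.22) and Vsig4 (9.16) are above the floor in macrophages alone, Cfb peaks at 9.83 in Spic-positive monocytes, and the probe sets of Cfp, C3ar1 and C5ar1 differ among themselves.

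Among the receptors, Vsig4 resembled C6. Its probe set, 1451651_at, measured log2 9.16 in red pulp macrophages, 4.14 in Spic-positive and 4.36 in Spic-negative monocytes. Again the macrophage array stood alone, with both monocyte arrays under the floor. Macrophages were higher than Spic-positive monocytes by 5.02 (32.5-fold, rank 57) and than Spic-negative monocytes by 4.80 (27.8-fold, rank 114). With values below the floor set to the floor, both differences were 4.14. The monocyte arrays differed by -0.22, and neither lay above the floor.

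The 2 anaphylatoxin receptors lay in opposite directions. C3ar1, on its brightest probe set 1419482_at, measured log2 6.50 in red pulp macrophages, 5.04 in Spic-positive and 5.25 in Spic-negative monocytes. These are low levels, with macrophages highest by 1.46 against Spic-positive and by 1.25 against Spic-negative monocytes. A second probe set, 1442082_at, gave 5.71 in macrophages, 3.60 in Spic-positive and 3.85 in Spic-negative monocytes. The third, 1419483_at, was under the floor on all 3 arrays, at 4.0 in macrophages, 3.92 in Spic-positive and 3.50 in Spic-negative monocytes. On the second probe set both monocyte values lay under the floor, and setting them to the floor left macrophages higher by 0.69, which is under 2-fold. The C3ar1 counts therefore rest on the brightest probe set.

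C5ar1 was lower in macrophages on the 1 probe set with any value above the floor, 1439902_at. It measured log2 4.48 in red pulp macrophages, 6.54 in Spic-positive and 7.70 in Spic-negative monocytes, so the levels were ordered opposite to those of Spic. Macrophages differed by -2.06 from Spic-positive monocytes (4.17-fold lower) and by -3.22 from Spic-negative monocytes (9.30-fold lower, rank 71 among genes lower in macrophages). Spic-positive monocytes differed by -1.16 from Spic-negative monocytes (2.23-fold lower, rank 206). As the macrophage level lay under the floor, its folds rest on background, and with values below the floor set to the floor the macrophage differences were -1.52 and -2.68. The other probe set, 1422190_at, lay under the floor at 4.67 in macrophages, 4.98 in Spic-positive and 4.68 in Spic-negative monocytes and showed no such order. The mean over both probe sets gave -1.19 and -1.61 for macrophages against the monocyte arrays and -0.43 between the monocyte arrays, which is under 2-fold.

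Counted together on the brightest probe sets, 4 of the 6 genes passed 2-fold upward in macrophages against Spic-positive monocytes, as did 22.0% of all compared genes. Cfp is among these 4, though its second probe set was not higher in macrophages. Another 2 were lower (Cfb and C5ar1), against 11.6% of all genes. Against Spic-negative monocytes, 4 were higher in macrophages, with 19.6% of all genes, and 1 was lower (C5ar1), with 11.3%. Between Spic-positive and Spic-negative monocytes, 1 was higher (Cfb), with 3.49% of all genes, and 1 was lower (C5ar1), with 3.06%. The median differences of the 6 genes were 2.60, 2.37 and -0.22 in these comparisons, beside 0.10, 0.03 and -0.06 over all 12375 genes. The comparisons share arrays and the genes were picked with earlier results known, so these counts describe the members and do not set them apart.

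**Figure D2:**
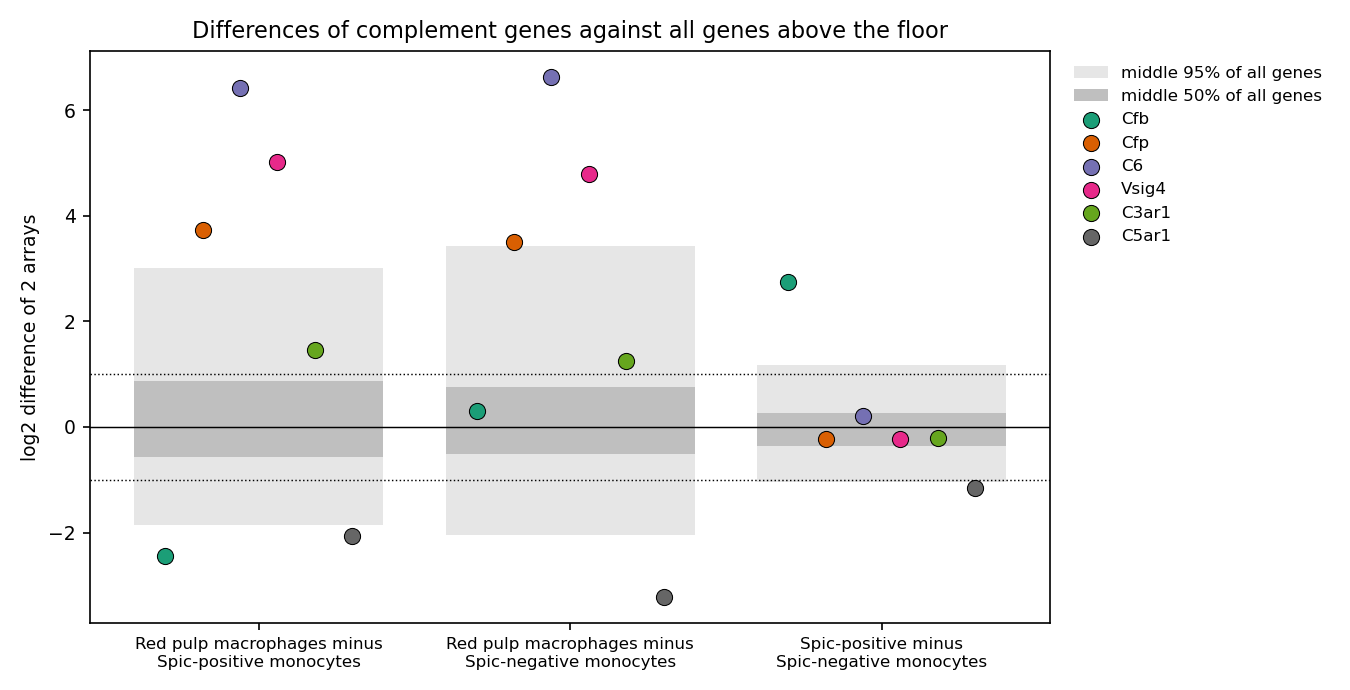
Log2 difference between 2 arrays (vertical axis) of the 6 genes in each comparison, on the brightest probe set of each gene. Light and dark grey bands hold the middle 95% and 50% of all 12375 genes above the floor, and dotted lines mark 2-fold. C6, Vsig4 and Cfp lie above the light band in both macrophage comparisons, and Cfb at 2.75 lies above it between the monocyte arrays, where Cfp, C6, Vsig4 and C3ar1 lie between -0.24 and 0.21.

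Of the genes most like each member, the 2 nearest by Euclidean distance between centred log2 values over the 3 populations were read for members with a range of at least 4-fold. For C6 these were Clec1b (12.08 in macrophages, 5.76 in Spic-positive and 5.42 in Spic-negative monocytes) and Pcolce2 (distances 0.091 and 0.14). For Vsig4 they were Slc39a8 (0.028) and Klf1 (0.050), an erythroid transcription factor gene that measured 9.47 in macrophages, 4.52 in Spic-positive and 4.70 in Spic-negative monocytes. For Cfp they were Tgm1 and Trbv1 (0.058 and 0.10). For Cfb they were the complement receptor gene Cr2 (0.25), at 5.56 in macrophages, 8.08 in Spic-positive and 5.60 in Spic-negative monocytes, and the chemokine gene Cxcl11 (0.40). For C5ar1 they were Pacs2 and Hnrnpl (0.11 and 0.16). With 3 points per gene, many genes share a pattern, and nearness says nothing of function.

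The rest of the pathway was read from 45 other complement genes, of which 39 had a probe set and 24 lay above the floor. Macrophages were at least 2-fold higher for 9 and lower for 8 of the 24 against Spic-positive monocytes (median difference 0.29). Over all compared genes the shares were 22.0% and 11.6% (median 0.10). Of the 8, Masp2, Colec12 and Csmd1 had macrophage values under the floor. Set to the floor, they differed by -0.53, 0 and -0.36. Against Spic-negative monocytes, macrophages were higher for 12 and lower for 3 (median 0.88), beside 19.6% and 11.3% of all genes (median 0.03). With values below the floor set to the floor, these counts were 11 and 2. Serping1 then differed by 0.18 and Colec12 by -0.08. Spic-positive monocytes were higher than Spic-negative monocytes for 9 and lower for 1 (median 0.43), beside 3.49% and 3.06% (median -0.06). With values below the floor set to the floor, the count higher was 8, and Cd55 then differed by 0.32. Itgam, whose product CD11b served in the monocyte sort, is counted lower in each comparison. Without the 3 C1q chains the medians were 0.09, 0.48 and 0.14. The C1q chains and ficolin A (Fcna), a lectin pathway recognition protein, ran differently from C6, Vsig4 and Cfp: C1qa measured 12.96 in macrophages, 8.66 in Spic-positive and 4.35 in Spic-negative monocytes, and Fcna measured 13.82 in macrophages, 7.90 in Spic-positive and 5.46 in Spic-negative monocytes, so both exceeded their Spic-negative level in Spic-positive monocytes.

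Of 5 genes for C1q and the classical proteases above the floor, all 5 were higher in macrophages than on either monocyte array. Among them C1ra, a C1r protease gene, measured 7.35 in macrophages, 4.69 in Spic-positive and 5.62 in Spic-negative monocytes. In the lectin group, ficolin B (Fcnb) had its highest level in Spic-positive monocytes, at 8.68, against 7.22 in Spic-negative monocytes, and measured 6.59 in macrophages. On their brightest probe sets, the serine protease gene Masp1 lay between 5.28 and 5.47 on the 3 arrays, and Masp2 measured 4.48 in macrophages, 5.55 in Spic-positive and 4.86 in Spic-negative monocytes. Their other probe sets were under the floor on all arrays. Colec12, a scavenger receptor collectin, measured 2.94 in macrophages, 4.61 in Spic-positive and 5.10 in Spic-negative monocytes. In the terminal pathway, 4 of 5 genes with a probe set besides C6, namely Hc (which encodes C5), C8a, C8b and C9, lay under the floor on all arrays. The exception was C8g, the gamma chain of C8, at 6.46 in macrophages, 4.65 in Spic-positive and 4.86 in Spic-negative monocytes. C7 was not analysed here.

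Of 6 membrane regulators above the floor, 2 (Cd55 and Cd59a) were at least 2-fold higher in macrophages in both comparisons, on their brightest probe sets. Over all compared genes the shares were 22.0% against Spic-positive and 19.6% against Spic-negative monocytes. Against Spic-positive monocytes 1 was lower, beside 11.6% of all genes. This was Csmd1, at -1.03, or -0.36 with values set to the floor. Cd46 and Susd4 differed by less than 2-fold in all comparisons. Cd55, which speeds decay of convertases, measured 7.40 in macrophages, 5.35 in Spic-positive and 4.03 in Spic-negative monocytes, and its other 2 probe sets, under the floor on both monocyte arrays, were higher in macrophages by 2.48 and 3.25 once those values were set to the floor. Cd59a, an inhibitor of the membrane attack complex, measured 7.51 in macrophages, 5.59 in Spic-positive and 5.22 in Spic-negative monocytes. Its other probe set measured 5.68 in macrophages, 4.43 in Spic-positive and 3.53 in Spic-negative monocytes. Both of these monocyte values lay under the floor, and setting them to it left macrophages higher by 0.65, under 2-fold. Cr1l, the rodent regulator Crry, differed by less than 2-fold in all comparisons, at 10.50 in macrophages, 9.65 in Spic-positive and 10.02 in Spic-negative monocytes. Clu (clusterin) measured 7.21 in macrophages, 7.12 in Spic-positive and 5.95 in Spic-negative monocytes, and Serping1, the C1 inhibitor, reached 5.20 in macrophages only. Soluble regulator genes Cfi, C4bp, Vtn, Cpn1 and Cpn2 were under the floor on all arrays.

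Of the other receptors, the integrin chain Itgb2, shared by complement receptors 3 and 4, differed by at most 0.10 between arrays, while its alpha chain partners did not. Itgax, the alpha chain of receptor 4, measured 8.50 in macrophages, 10.41 in Spic-positive and 7.27 in Spic-negative monocytes. Itgam, given above, differed by -2.14 and -3.45 between macrophages and the Spic-positive and Spic-negative monocytes. Cd93, once described as a C1q receptor, measured 6.73 in macrophages, 10.14 in Spic-positive and 10.90 in Spic-negative monocytes on its brightest probe set. Among all receptors measured, Itgam, Cd93 and C5ar1 were at least 2-fold lower in macrophages than on both monocyte arrays, and Vsig4 and C3ar1 were at least 2-fold higher. The Itgam difference cannot be told apart from the sort, as the monocytes were selected on CD11b.

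**Figure D3:**
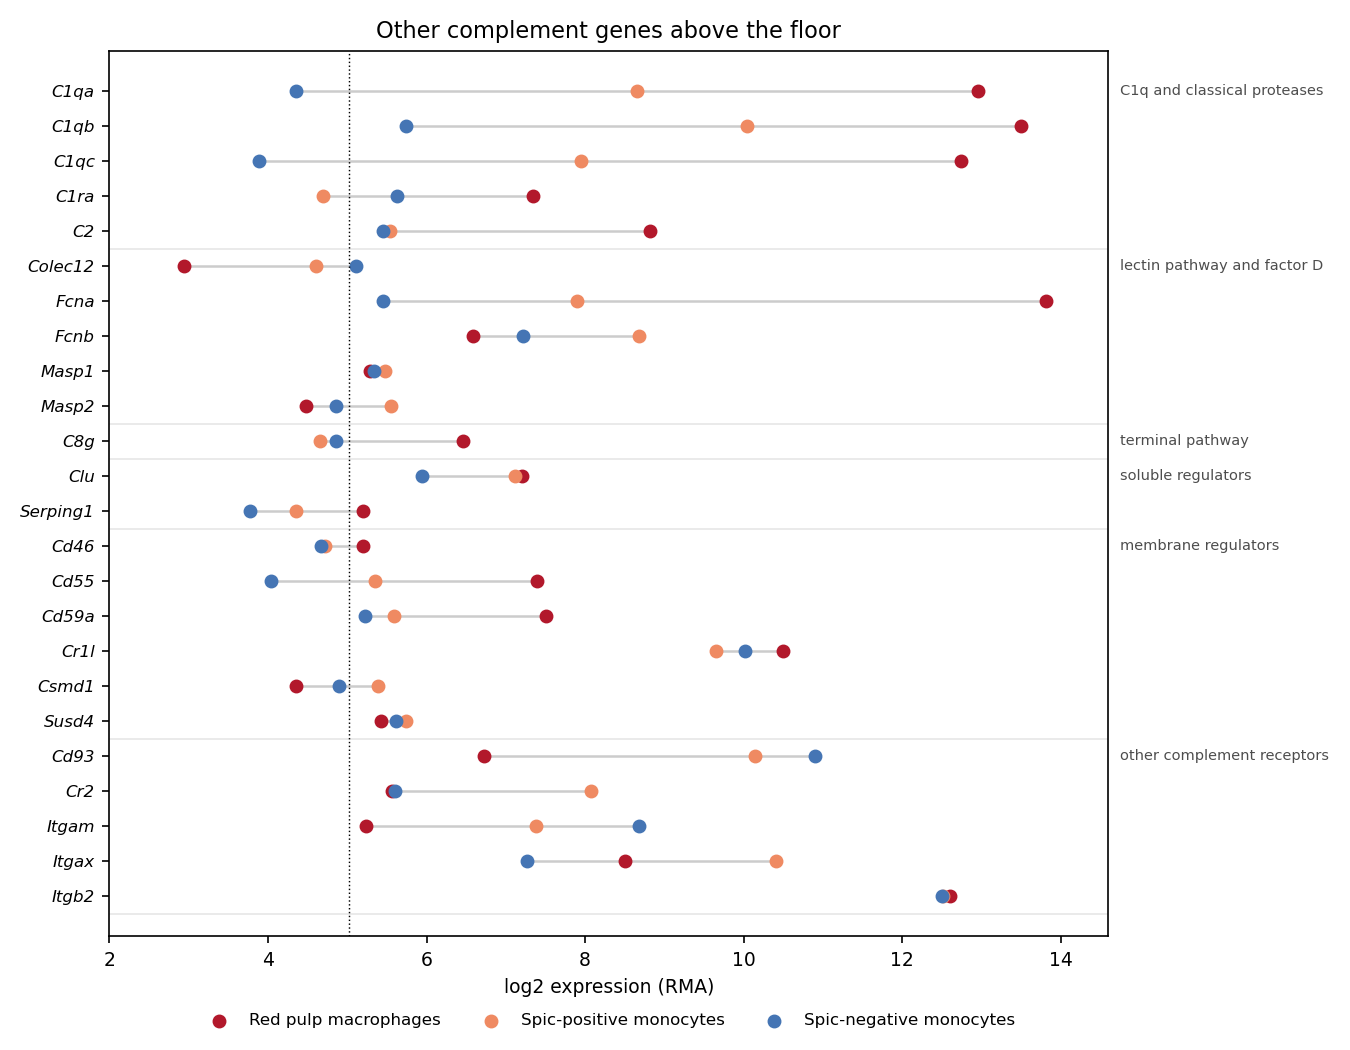
Log2 expression (horizontal axis, RMA) of the 24 other complement genes above the floor, by pathway role, with 1 point for each of the 3 arrays and the dotted line at the floor of 5.02. Positions are to be compared within a row, since each row is another probe set. C1qa, C1qb, C1qc and Fcna are stepped over the 3 populations, C2 (8.82) stands apart in macrophages, and Cr2 (8.08) and Itgax (10.41) have their highest point in Spic-positive monocytes.

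Markers of other cell types moved with several members. Among 11 erythroid markers with a probe set, 9 passed the floor, and each of the 9 was over 2-fold higher in macrophages than on either monocyte array (medians 4.95 and 4.78), with a list mean of log2 8.99 in macrophages, 4.63 in Spic-positive and 4.50 in Spic-negative monocytes. Hba-a1 and Epb42 lay under the floor on all arrays. Platelet markers were higher in macrophages for 2 of 5, Pf4 and Ppbp, in both comparisons, and lower for 1, Gp1bb, against Spic-positive monocytes. Among the 3 marginal zone macrophage markers compared, 2 passed 2-fold upward in macrophages in both comparisons, Marco (by 2.80 and 6.14) and Nr1h3 (by 2.10 and 3.98), while Siglec1 was not. Of 3 T and NK cell markers, 1 was, Cd3g (by 2.79 and 3.51). Of 9 B cell markers, 4 were higher in macrophages than in Spic-negative monocytes, among them Ighm by 3.02 and Cd79b by 2.66, and against Spic-positive monocytes 1 was higher and 3 were lower. The part of RNA from any of these cell types in the macrophage values of C6, Vsig4, Cfp and C3ar1 was not tested. Stromal and endothelial markers averaged 4.74 in macrophages, 4.77 in Spic-positive and 4.57 in Spic-negative monocytes, and 5 of 12, among them Col1a1, Col3a1 and Pdgfra, lay under the floor on all arrays. Within that list Cxcl13 measured 6.87 in macrophages, 5.49 in Spic-positive and 5.12 in Spic-negative monocytes.

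Beside Cfb and Cr2, 8 of 9 B cell markers were higher by 2-fold or more on the Spic-positive array (median difference 1.50 against Spic-negative monocytes). Over all compared genes the share was 3.49%. The Spic-negative values of Cd79a (4.85), Ebf1 (4.24) and Fcer2a (4.45) lay under the floor, so their differences rest partly on background. The mean of the B cell markers was 7.47 in macrophages, 7.92 in Spic-positive and 6.25 in Spic-negative monocytes. Dendritic cell markers were higher in 2 of 5 cases, Ccr7 and Zbtb46, and the Spic-negative value of Zbtb46 (4.11) lay under the floor. The endothelial marker Kdr measured 6.54 in macrophages, 7.93 in Spic-positive and 6.14 in Spic-negative monocytes. The part of B, dendritic or endothelial cells in the Cfb value was not tested. Beside C5ar1, all 8 classical monocyte markers were at least 2-fold lower in macrophages than in Spic-negative monocytes, with means of 9.09 in macrophages, 11.92 in Spic-positive and 12.57 in Spic-negative monocytes. Neutrophils also carry C5ar1, and their markers averaged 10.14 in macrophages, 10.41 in Spic-positive and 10.68 in Spic-negative monocytes. Of these 9, 3 were at least 2-fold lower in macrophages than in Spic-negative monocytes (Cxcr2, Mmp8 and Csf3r) and 1 was higher (Ltf). Against Spic-positive monocytes, 6 of 8 classical monocyte markers were lower in macrophages and 0 were higher, and of the neutrophil markers 2 were higher and 2 were lower. The part of these cells in the C5ar1 value was not tested.

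**Figure D4:**
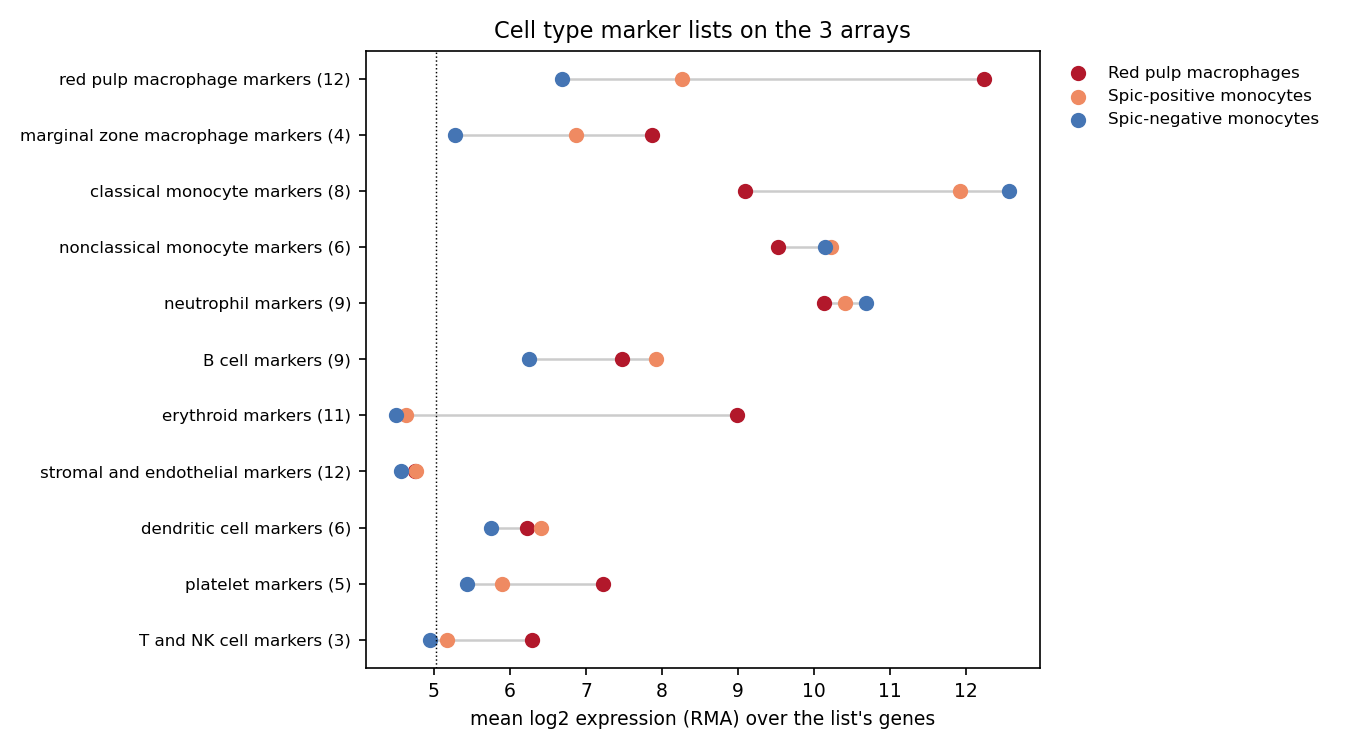
Mean log2 expression (horizontal axis, RMA) of each cell type marker list on the 3 arrays, with the number of genes that have a probe set in brackets and the dotted line at the floor of 5.02. Erythroid markers average 8.99 in macrophages and lie under the floor on both monocyte arrays, and B cell markers are lowest in Spic-negative monocytes at 6.25.

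Cfp and Vsig4 are X-linked, and transcripts that tell X from Y chromosomes differed between the arrays. Xist, which coats the inactive X chromosome, measured log2 11.95 in macrophages, 4.70 in Spic-positive and 4.63 in Spic-negative monocytes. The Y-linked Eif2s3y measured 3.31 in macrophages, 9.56 in Spic-positive and 10.10 in Spic-negative monocytes. Of 341 compared X-linked genes, 20.2% were 2-fold or more higher in macrophages than in Spic-negative monocytes, beside 19.6% of 12005 autosomal genes, and 24.3% beside 21.9% against Spic-positive monocytes. The sex of the mice is not given, and its part in the values of Cfp, Vsig4 and the autosomal members was not tested. Both transcripts split the macrophage array from the monocyte arrays, so such a part cannot be told apart from cell type. The autosomal members C6 and C3ar1, also higher in macrophages, share this limit.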

How the data were processed

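The authors summarised each probe set with RMA, per the submitters' processing notes, and deposited log2 levels; no RMA version was given in the sources used here. The log2 scale was taken from the values, which ran from 1.82 to 14.50 with none below 0, so they are uncentred levels and not ratios. Array medians were 4.96, 5.08 and 5.01 for red pulp macrophages, Spic-positive and Spic-negative monocytes. Per the labels' protocols, column-purified total RNA went through a 2-cycle amplification, which shortens transcripts towards the 3′ end. RMA sets arrays to a common scale, so differences in a cell's total RNA cannot be seen.

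Of 45101 probe sets, 64 controls were left out. Of the other 45037, 34945 had 1 symbol, 932 had several and 9160 were unnamed here, and 34741 symbols were matched by gene identifier to a GRCm38.p6 gene table. A gene took its probe set with the highest mean, and the 12375 genes with an array above the floor were compared at 2-fold. The number of arrays limits the precision. Members, lists and the naming rule (members, listed complement genes, the 2 nearest genes per member, and markers with their counts) were chosen with earlier results of these data known. The counting was tested on simulated data. Python 3.11.15, numpy 2.4.6, pandas 2.3.3, matplotlib 3.10.9, R 4.3.3 and limma 3.58.1 (cyclic loess) were used. Alternatives were the mean or median of probe sets, leaving out _x_at and _s_at probe sets, array centring, quantile normalization again, cyclic loess, no floor, a higher floor, and values clipped at the floor.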

Additional observations from a re-analysis of the deposited data

How the results depend on the processing

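Each result was recomputed under 9 alternatives. Of 159 differences of single members, 154 kept their direction and their side of 2-fold and none that passed 2-fold turned in sign. Part of these could not change. No member probe set ends in _x_at or _s_at, and removing or raising the floor leaves a member's values as they were. Cfb, C6 and Vsig4 have 1 probe set each, so the mean and median leave them unmoved. No alternative read the second Cfp probe set alone, where macrophages differed by -0.57 and -0.58 from the monocyte arrays. With values below the floor set to the floor, C6 and Vsig4 between the monocyte arrays became 0, having been 0.21 and -0.22, both under 2-fold. C5ar1 between Spic-positive and Spic-negative monocytes was -0.43 with the mean and with the median of its probe sets, so the count of members lower there was 0 under both in place of 1; the second probe set is under the floor. C3ar1 between the monocyte arrays, under 2-fold, was 0.07 with the median of its probe sets in place of -0.21. C3ar1 gave no value with the floor at the 75th percentile (log2 7.26). Cfp in macrophages ranged from 1.58 to 3.85 against Spic-positive and from 1.46 to 3.57 against Spic-negative monocytes. Among the other complement genes, the count lower in macrophages than in Spic-positive monocytes was 5 in place of 8 both with the higher floor and with values set to the floor, since these remove or shrink dim values. In Spic-positive against Spic-negative monocytes, the count lower was 2 in place of 1 with arrays centred on their medians and with quantile normalization again. In the main setting C1ra, at -0.93, lay just short of 2-fold there, and its part in the change was not tested. The other 102 of 108 counts stayed within 1.5 times. Scaling moved the median of all genes between macrophages and Spic-positive monocytes, 0.10, to 0.23 with centring and to -0.03 with quantile normalization. Between the monocyte arrays, 53.3% of differing genes were higher in Spic-positive monocytes, 42.4% with centring and 63.3% with cyclic loess; 297 genes higher and 237 lower with the mean of probe sets, 280 and 318 with values set to the floor and 249 and 269 with the higher floor stood against 432 and 379. Of the 10 member probe sets, 4 had all arrays above the floor and 2 had none, 1 each of C3ar1 and C5ar1. No paired analysis was possible because each group has 1 array.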
